A study of Mus musculus with 30 samples.

Results

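The Il6 family of cytokines, its receptors and its feedback inhibitor were followed in mouse digits after amputation of the tip. The 10 genes were found by symbol in the deposited tables of 20321 genes: the ligand genes Il6, Il11, Lif and Osm, the receptor genes Il6st, Il6ra, Il11ra1, Lifr and Osmr, and the inhibitor gene Socs3. They were chosen with earlier results of these data known, among them the level of Il6 at 24 h against 0 h. Their levels over time are therefore given as a description, without p-values. The lists of other pathway genes were also chosen with such results known, so the adjusted p-values printed for their time courses are no independent support.

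RNA came from the distal phalanx of the third hindlimb digit of 30 adult male C57Bl/6 mice, 9 to 10 weeks old, each with at most 33% of that bone removed. The labels and methods name no transgene and no agent but the anesthesia for surgery, and the wound was left to close without sutures. Digits were taken at 9 time points after amputation, 0, 3, 6, 12 and 24 h and 3, 7, 14 and 21 d, from 6 mice at 7 d and from 3 at every other time, and those taken at 0 h served as the reference. Dates in the titles divide the mice into an earlier campaign of July and August (16 mice) and a later campaign of November to January (14 mice). Campaign is a name given here, and the labels do not say whether a date is that of surgery, collection or library preparation.

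The 3 h and 12 h groups hold earlier mice alone and the 21 d group later mice alone, so at these times campaign and time cannot be told apart. Mice are numbered within a time point in the order of the deposited samples. At 0 h, mice 1 and 2 were of the later and mouse 3 of the earlier campaign. At 7 d, 3 of the later mice were sampled on the left foot and every other mouse of the series on the right. The sum of expected counts in a mouse lay between 3167625 and 16277816, with a median of 5083528 in the earlier and 9836324 in the later campaign. An animal tag in the titles recurs at 2 or more time points in 4 cases. One of them joins 0 h mouse 3 with a 3 h and a 12 h mouse, the latter with the same date, and the labels do not say whether these are the same animal. Summed keratinocyte markers lay between 26451 and 88815 CPM (counts relative to library size, after TMM scaling) in every mouse, and fibroblast, endothelial and bone markers were present throughout. In such mixed tissue, fewer cells of a type and less RNA per cell cannot be told apart.

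Cytokines of the Il6 family bind a receptor subunit of their own (Il6ra for Il6, Il11ra1 for Il11, Lifr for Lif, Osmr for Osm) and signal through the common subunit gp130, which Il6st encodes. The activated complex engages Jak kinases, which phosphorylate Stat3, and Stat3 raises transcription of Socs3, an inhibitor that binds the complex and closes the loop. In skin and bone the family is known for roles in the acute response to injury, in the recruitment and differentiation of leukocytes and in the balance of osteoblasts and osteoclasts.

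Promoter windows were found for 9 of the 10 members, all but Osm. Those of 3 ligand genes are shown because the time course of the family rests on them. Each window holds the 250 bases before the RefSeq transcription start in GRCm38.p6 that lies nearest to an annotated transcript, and capitals mark matches to AP-1 (TGANTCA) or kappaB motifs. The Il6 window is chr5:30012864-30013113 on the plus strand, the Il11 window chr7:4778142-4778391 on the minus strand, and the Lif window chr11:4257318-4257567 on the plus strand.
Il6: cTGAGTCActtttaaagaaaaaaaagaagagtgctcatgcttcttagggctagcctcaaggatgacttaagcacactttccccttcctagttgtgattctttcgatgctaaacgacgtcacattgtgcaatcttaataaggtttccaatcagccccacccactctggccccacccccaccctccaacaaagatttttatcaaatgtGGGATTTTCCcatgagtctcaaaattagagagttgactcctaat
Il11: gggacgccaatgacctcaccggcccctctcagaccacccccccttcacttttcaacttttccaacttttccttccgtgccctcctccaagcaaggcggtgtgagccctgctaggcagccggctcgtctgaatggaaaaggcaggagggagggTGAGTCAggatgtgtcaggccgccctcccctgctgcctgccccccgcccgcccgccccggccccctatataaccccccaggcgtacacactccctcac
Lif: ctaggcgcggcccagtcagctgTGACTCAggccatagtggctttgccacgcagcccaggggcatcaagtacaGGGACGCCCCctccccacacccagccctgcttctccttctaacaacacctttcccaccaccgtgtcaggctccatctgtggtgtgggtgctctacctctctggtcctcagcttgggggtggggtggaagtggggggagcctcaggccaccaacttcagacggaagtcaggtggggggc
On both strands, 4 motifs were searched: AP-1, kappaB, the STAT motif TTCNNNGAA and the cyclic AMP response element TGACGTCA. All 3 windows held an AP-1 match, which 6.75% of 32851 mouse promoter windows of the same length hold. It lay 249 to 243 bases before the start in Il6, 98 to 92 in Il11 and 228 to 222 in Lif. Il6 also held a kappaB match from 44 to 35 bases before the start and Lif one from 178 to 169, against 7.25% of all windows. None of the 4 motifs was found in the windows searched for Il6st, Il6ra, Il11ra1, Lifr and Osmr. The window of Socs3 held a STAT match alone (7.02% of all windows), 154 to 146 bases before the RefSeq start. For Osmr and Socs3 the RefSeq start lies 656 and 180 bases from the nearest start of an annotated transcript, and these windows lie within the gene, as do those of Il11, Il11ra1 and Lifr. These 3 genes have 2 windows each in the table, of which 1 was searched. A match describes the letters only and says nothing of binding in these digits.

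Il6 encodes the founding cytokine of the family, a fever and acute phase signal, on chromosome 5 (GRCm38, 30013114 to 30019981, 5 exons). At 0 h the 3 mice had 0.080, 0 and 0 CPM, which is 1 read in all. At 3 h the mice had 1.22, 21.2 and 22.4 CPM. Already at this first time, every mouse lay above every 0 h mouse, although 1 of the 3 stood far below the other 2. At 6 h the mice had 19.0, 5.67 and 14.7 CPM, and at 12 h they had 7.99, 17.9 and 24.7 CPM. At 24 h the mice had 37.8, 56.0 and 46.5 CPM, with a mean of 46.8 ± 9.07 (SD, n = 3). No mouse of any other time point reached this range. At 3 d the level was down to 10.7, 5.58 and 6.80 CPM. At 7 d it lay between 1.27 and 13.2 CPM with a mean of 4.68 ± 4.39 (SD, n = 6). At 14 d (0, 0.41 and 1.13 CPM) and 21 d (1.67, 0.19 and 0 CPM) the mice overlapped with those at 0 h.

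Since the 0 h mice were at or under 3 counts, the smallest number taken as detectable in a library, folds of Il6 are lower bounds. Against that floor the mean was at least 43.1-fold higher at 3 h, 37.8-fold at 6 h, 48.7-fold at 12 h, 135-fold at 24 h, 22.2-fold at 3 d and 13.5-fold at 7 d. The 7 d bound rested in part on mouse 5 (13.2 CPM), without which it was 8.56-fold. The 24 h level was high in both campaigns: on the log2(CPM + 1) scale, the mean differed from that at 0 h by 5.56 among earlier mice (2 against 1) and by 5.51 among later mice (1 against 2).

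Lif, which encodes leukemia inhibitory factor, lies on chromosome 11 (4257557 to 4272514, 5 exons), where its neighbour Osm lies just upstream on the same strand (4236420 to 4241026). At 0 h the mice had 1.92, 2.98 and 1.92 CPM. At 3 h they had 4.08, 12.5 and 15.5 CPM, and at 6 h they had 26.7, 17.5 and 34.1 CPM. The mean of Lif was higher at each step of the first day, at 10.7, 26.1, 54.4 and 148 CPM at 3, 6, 12 and 24 h. At 12 h the mice had 31.8, 66.9 and 64.6 CPM. At 24 h the mice had 179, 185 and 79.7 CPM, a mean of 148 ± 59.1 (SD, n = 3). The lowest 24 h mouse was the 1 from the later campaign, and it still lay above every mouse of every other time point. The fold of the means at 24 h against 0 h was 65.0, with a log2 fold change of 6.01 and a standard error (SE) of 0.59 from the edgeR fit.

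At 3 d, Lif stood at 39.3, 47.9 and 43.7 CPM, a tight group with a log2 fold change of 4.24 (SE 0.56). At 7 d the mice ranged from 9.04 to 64.2 CPM with a mean of 39.7 ± 20.0 (SD, n = 6). By 14 d the values were 3.18, 5.66 and 7.36 CPM, and at 21 d they were 9.17, 4.57 and 5.24 CPM. Lif was the 1 member for which every mouse at every later time, 21 d included, lay above every 0 h mouse. The log2 fold changes left at 14 d and 21 d were 1.27 (SE 0.56) and 1.46 (SE 0.55). Within campaigns, the 24 h difference in mean log2(CPM + 1) was 5.97 in the earlier and 4.56 in the later mice.

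Il11 encodes interleukin 11, a cytokine of stromal cells and bone, on chromosome 7 (4772373 to 4782859, 5 exons). Its course differed from that of Il6 and Lif, and the 0 h mice stood apart from each other. At 0 h the later mice had 15.9 and 18.5 CPM and the earlier mouse had 2.08 CPM. At 3 h the mice, all of the earlier campaign, had 4.48, 4.25 and 1.45 CPM. At 6 h they had 1.33, 16.8 and 3.33 CPM, the high value again in the later mouse, and at 12 h they had 4.00, 7.07 and 12.7 CPM. At 24 h, 3 d and 7 d the mean lay above that at 0 h in both campaigns. At 24 h the mice had 20.7, 21.6 and 27.6 CPM, above all 0 h mice. At 3 d they had 45.5, 15.9 and 11.7 CPM, and the highest was the later mouse. At 7 d the mice ranged from 14.8 to 38.6 CPM, the highest mean of the series at 26.8 ± 9.38 (SD, n = 6), and 5 of 6 lay above all 0 h mice. At 14 d they had 7.24, 16.4 and 15.2 CPM, and at 21 d they had 14.3, 13.6 and 15.8 CPM, close to the later 0 h mice.

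The log2 fold change of Il11 was 0.91 (SE 0.64) at 24 h and 1.124 (SE 0.57) at 7 d. Within the earlier campaign alone, the 24 h difference in mean log2(CPM + 1) was 2.85 against the single 0 h mouse, and within the later campaign it was 0.65. At 7 d these differences were 2.90 and 0.64. The size of the Il11 difference from 0 h thus rested on which 0 h mice were used.

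Osm encodes oncostatin M, a cytokine of neutrophils and macrophages. It was the scarcest member, with 0 to 35 reads per mouse and a mean of 0.142 CPM at 0 h. The highest mean came late, at 14 d, with mice at 2.30, 1.13 and 3.03 CPM and a mean of 2.15 ± 0.96 (SD, n = 3), at least 6.21-fold above the floor at 0 h. At 24 h the mice had 1.25, 1.88 and 2.34 CPM, at least 5.26-fold. At 7 d the mice ranged from 0.79 to 2.85 CPM, at least 4.95-fold for the mean. At these 3 times every mouse lay above every 0 h mouse, whereas at 3 h, 6 h, 12 h, 3 d and 21 d the groups overlapped. With counts this low, differences between those times were not detectable at this depth.

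**Figure D1:**
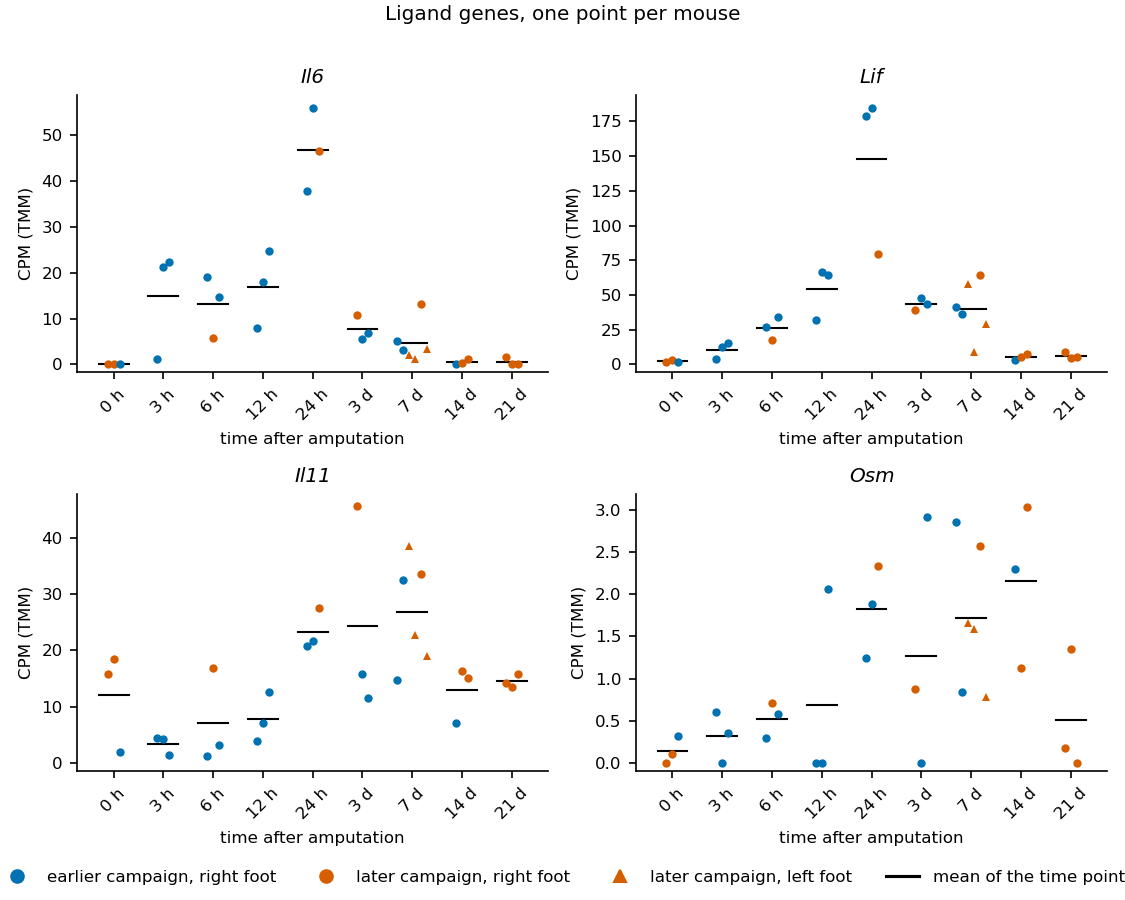
Levels of the 4 ligand genes in each of 30 mice (vertical axis, TMM-normalized CPM on a linear scale that starts at 0 and differs between panels) by time after amputation (horizontal axis). Blue circles are mice of the earlier campaign, orange circles right-foot and orange triangles left-foot mice of the later campaign, and black lines are means. Il6 and Lif stand highest at 24 h (means of 46.8 and 148 CPM), Il11 at 7 d (26.8 CPM) and Osm at 14 d (2.15 CPM).

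Among the receptor genes, Il6st, which encodes gp130, moved over a narrow range. It lies on chromosome 13 (112464070 to 112510086, 17 exons). At 0 h the mice had 152, 189 and 187 CPM. At 24 h they had 303, 296 and 172 CPM, the low value in the later mouse. That is a log2 fold change of 0.55 (SE 0.21), and the groups overlapped. At 7 d all 6 mice, from 205 to 270 CPM, lay above all 0 h mice, with a log2 fold change of 0.45 (SE 0.19). At 21 d the mice had 152, 137 and 164 CPM, the lowest mean of the series.

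Osmr was the receptor gene with the widest range, by the ratio of the highest to the lowest mean. It encodes the oncostatin M receptor subunit, on chromosome 15 (6813577 to 6874969, minus strand, 18 exons). At 0 h the mice lay close together at 17.7, 19.0 and 19.2 CPM. At 3 h they had 35.9, 68.6 and 49.2 CPM, and at 6 h they had 74.9, 26.8 and 69.7 CPM. The mean was thus up at the first time measured, and it stayed up through 24 h, with mice of the earlier campaign alone at 3 h and 12 h. At 12 h the mice had 51.5, 54.2 and 63.0 CPM, and at 24 h they had 56.1, 76.8 and 30.8 CPM. The log2 fold changes at 3, 6, 12 and 24 h were 1.46, 1.61, 1.60 and 1.56, each with an SE of 0.41, and all 12 mice lay above all 0 h mice. The lowest mouse at 6 h and at 24 h was in each case the later one. Among earlier mice (2 against 1), the difference from 0 h in mean log2(CPM + 1) was 1.86 at 6 h and 1.72 at 24 h. Among later mice (1 against 2) it was 0.52 and 0.72. At 3 d (20.3, 41.7 and 43.9 CPM) and 14 d (31.8, 28.0 and 38.6 CPM) the mice also lay above those at 0 h. At 7 d, 5 of 6 did, and at 21 d, 2 of 3.

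Il6ra encodes the Il6 receptor subunit, on chromosome 3 (89864059 to 89913196, minus strand, 10 exons). It had 30.6, 27.1 and 30.1 CPM at 0 h. At 3 h the mice had 47.5, 41.3 and 31.8 CPM, above all 0 h mice, with a log2 fold change of 0.46 (SE 0.29). At 24 h, when Il6 was highest, Il6ra had its lowest mean, with 22.0, 19.8 and 28.3 CPM and a log2 fold change of -0.33 (SE 0.29). The 24 h mice overlapped with those at 0 h. Of the Il6ra exon bases, 208 overlap an antisense gene, Gm42809. Whether the counting used strand is not given in the sources used here, so reads of the pair cannot be told apart there.

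Il11ra1 encodes the Il11 receptor subunit, on chromosome 4 (41699989 to 41769474, 16 exons). It had 44.5, 44.5 and 28.0 CPM at 0 h. At 3 h the mean was lowest, with 37.9, 23.9 and 24.2 CPM, all in earlier mice. The earlier 0 h mouse was the one with 28.0 CPM. At 3 d the mice had 54.6, 68.5 and 68.0 CPM, above all 0 h mice, with a log2 fold change of 0.70 (SE 0.26). Among earlier mice (2 against 1) the 3 d difference from 0 h in mean log2(CPM + 1) was 1.26. Among later mice (1 against 2) it was 0.29. At 7 d the mice ranged from 42.0 to 100 CPM, with a log2 fold change of 0.70 (SE 0.23). Both of these times fall within the window in which Il11 itself had its highest means. Of the 31-base words of the Il11ra1 transcripts, 50.9% also occur in Gm13305, so the counts of this gene are uncertain where the authors' estimate split reads between copies.

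Lifr encodes the Lif receptor subunit, on chromosome 15 (7090614 to 7197489, 23 exons). By the same ratio its means varied least, from 35.8 ± 9.85 CPM at 0 h to 55.5 ± 17.2 CPM at 14 d (SD, n = 3 each). Within time points it varied more, for example from 25.5 to 58.6 CPM at 24 h and from 15.5 to 58.0 CPM at 7 d. The largest log2 fold change was 0.63 (SE 0.36) at 14 d, when the groups overlapped.

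Socs3 encodes the feedback inhibitor of gp130 signalling, on chromosome 11 (117966079 to 117970047, minus strand, 2 exons). At 0 h it had 32.9, 26.5 and 52.3 CPM. At 3 h the mice had 39.3, 146 and 123 CPM. The mouse with the low value is the same in which Il6 was low at 3 h (1.22 CPM). The log2 fold change at 3 h was 1.46 (SE 0.50), and the groups overlapped. The 3 h mice were all of the earlier campaign. Their mean log2(CPM + 1) differed by 0.76 from the single earlier 0 h mouse (52.3 CPM). At 6 h the mice had 71.6, 32.9 and 37.2 CPM, back in the 0 h range for 2 of 3. At 24 h they had 82.9, 100 and 78.1 CPM, above all 0 h mice, with a log2 fold change of 1.23 (SE 0.49). At 7 d all 6 mice, from 60.8 to 97.4 CPM, lay above those at 0 h, with a log2 fold change of 1.03 (SE 0.44). At 14 d the mice spread from 19.2 to 101 CPM and at 21 d from 18.6 to 88.5 CPM. At 24 h the difference from 0 h in mean log2(CPM + 1) was 0.79 among earlier and 1.37 among later mice. At 7 d it was 0.29 and 1.41, and at 14 d it was -1.40 and 1.26. The size of the Socs3 difference thus rested on campaign as well.

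**Figure D2:**
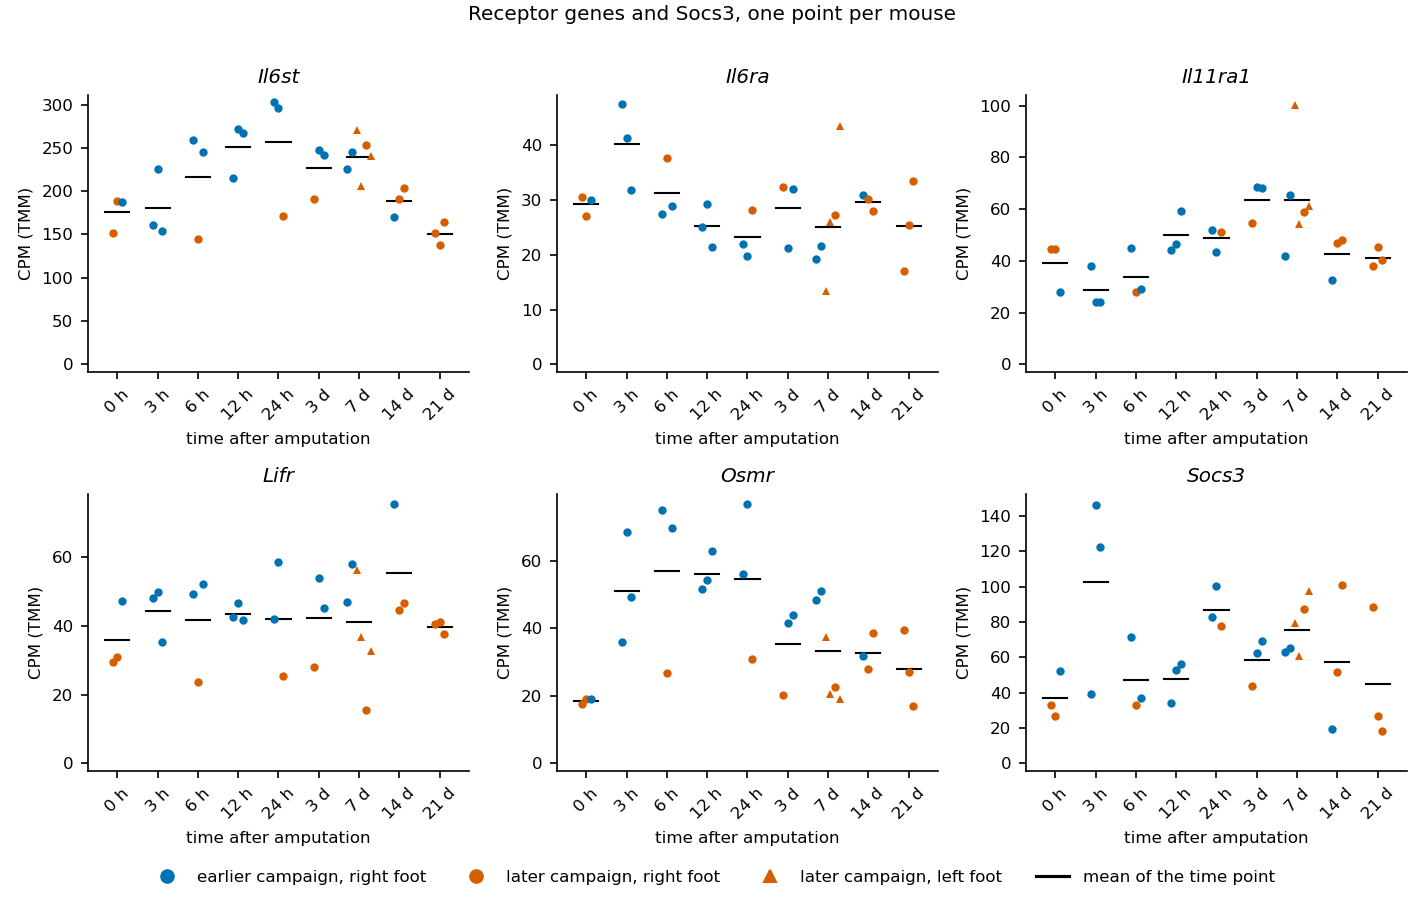
Levels of the 5 receptor genes and of Socs3 in each of 30 mice (vertical axis, TMM-normalized CPM on a linear scale that differs between panels) by time after amputation (horizontal axis), with symbols for campaign and foot as for the ligand genes and black lines for means. Osmr stands at 18.6 CPM at 0 h and between 51.2 and 57.1 CPM from 3 h to 24 h, and the later mice are lowest at 6 h and 24 h. Socs3 is highest at 3 h (mean of 103 CPM), with 1 of 3 mice in the 0 h range.

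Read against the fit over all 13793 genes tested, Il6 alone of the 10 members had an adjusted p under 0.05 at 3 h, where 0.254% of all genes did. Both Il6 and Lif passed at 6 h (0.189% of all genes), 12 h (0.167%), 24 h (0.493%), 3 d (0.551%) and 7 d (2.34%). No member passed at 14 d (1.61%) or 21 d (1.94%). The F-test over all times passed 5 of 10 members, Il6, Il11, Lif, Il11ra1 and Osmr (9.01% of all genes). Since the members were chosen with such results known, these counts are no test of the family. By groups that do not overlap, 4 members had every mouse above every 0 h mouse at 3 h (9.16% of all genes), 3 at 6 h (8.61%), 4 at 12 h (9.82%) and 6 at 24 h (8.77%). The numbers at 3 d, 7 d, 14 d and 21 d were 5 (8.16%), 5 (3.92%), 3 (13.6%) and 1 (12.5%). The median log2 fold change over the 10 members at 24 h was 1.0725, against 0.01 over all genes tested.

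Compared per transcript length, the members changed places during the first day. In TPM (a library-relative level corrected for transcript length) at 0 h, Il11ra1 (45.4 ± 9.46, SD, n = 3) and Il6st (43.2 ± 6.33) were the most abundant and did not differ beyond their spread. They were followed by Socs3 (31.6), Il11 (20.3), Il6ra (18.7), Lifr (9.29) and Osmr (7.23). Lif (1.27), Osm (0.14) and Il6 (0.05) stood at the bottom. At 24 h, Il6 (89.5 TPM) and Lif (82.4 TPM) headed the order, above Socs3 (70.8) and Il6st (62.6). Neighbours among these 4 overlapped within 1 SD. Il11ra1 (54.9), Il11 (37.2), Osmr (21.3), Il6ra (13.9), Lifr (10.1) and Osm (1.59) came after them.

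The balance of the specific subunits to gp130 also shifted. The TPM ratio of Osmr to Il6st was 0.169 ± 0.014 (SD, n = 3) at 0 h and 0.446 ± 0.081 at 3 h. Every 3 h mouse (lowest 0.353), all of the earlier campaign, lay above every 0 h mouse (highest 0.185). The ratio of Osmr was still 0.329 ± 0.071 at 24 h. The ratio of Il6ra to Il6st was 0.440 ± 0.078 at 0 h and 0.594 ± 0.155 at 3 h, when the groups overlapped. At 6 h it ranged from 0.277 in an earlier mouse to 0.676 in the later mouse. At 12 h, in earlier mice alone, it was 0.265 ± 0.049, below all 0 h mice. At 24 h it was 0.265 ± 0.144, and 1 of the 3 mice, the later one (0.431), lay within the 0 h range. The ratio of Lifr to Il6st was 0.214 ± 0.017 at 0 h and moved in both directions. All mice lay above those at 0 h at 3 h (0.275 ± 0.015), 14 d (0.337 ± 0.133) and 21 d (0.296 ± 0.032), and all lay below them at 24 h (0.162 ± 0.033). The ratio of Il11ra1 to Il6st was lowest at 6 h (0.763 ± 0.178) and highest at 3 d (1.36 ± 0.04).

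**Figure D3:**
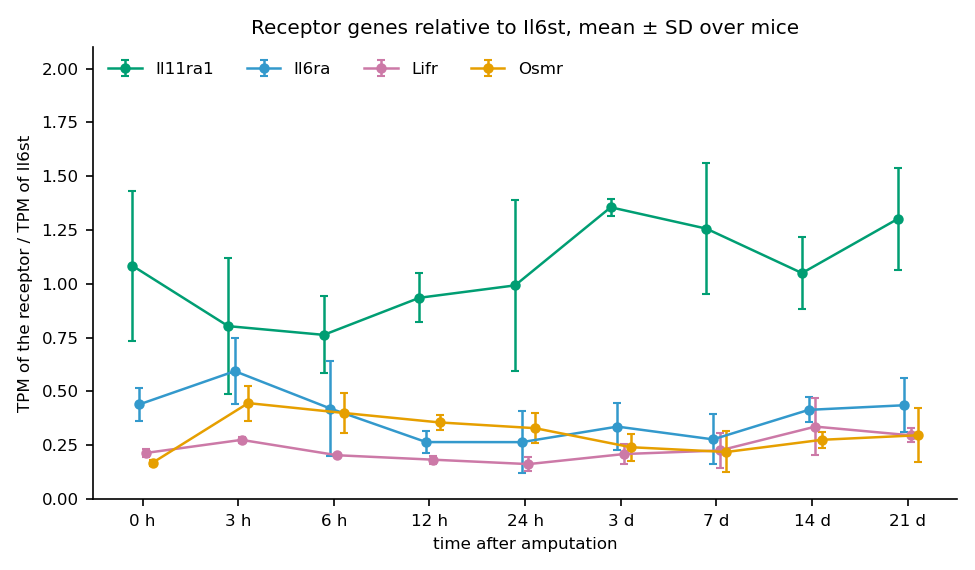
Ratio of the TPM of each specific receptor gene to the TPM of Il6st (vertical axis, linear from 0) by time after amputation (horizontal axis); points are means and bars the SD over 3 mice, or 6 at 7 d. Osmr goes from 0.169 at 0 h to 0.446 at 3 h, while Il6ra goes from 0.440 at 0 h to 0.594 at 3 h and 0.265 at 12 h and 24 h. The 3 h and 12 h points hold mice of the earlier campaign alone.

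The difference between campaigns played no part in the choice of members, so it was tested. With time point in the model, 3 of 10 members differed between campaigns at an adjusted p under 0.05 (edgeR, Benjamini-Hochberg over all genes), against 24.1% of all genes. Il11 was higher in the later mice, with a log2 difference of 1.25 (SE 0.28, adjusted p = 0.00151). The later mean was above the earlier mean at all 6 time points that hold both campaigns, which 10.9% of all genes showed in that direction. The gap was wide at 0 h (17.2 against 2.08 CPM), 6 h (16.8 against 2.33 CPM) and 3 d (45.5 against 13.8 CPM). It was smaller at 14 d (15.8 against 7.24 CPM) and narrowest at 24 h (27.6 against 21.2 CPM) and 7 d (28.4 against 23.7 CPM). Lifr was lower in the later mice, with a log2 difference of -0.77 (SE 0.15, adjusted p = 0.000202), at all 6 time points (7.95% of all genes). Osmr was lower as well, with a log2 difference of -0.82 (SE 0.18, adjusted p = 0.00100), at 5 of 6 time points.

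For the other 7 members the campaign difference did not pass the test. Il6 had a log2 difference of 0.15 (SE 0.52, adjusted p = 0.872) and Lif of -0.20 (SE 0.29, adjusted p = 0.670). Whether the time course itself differed between campaigns was tested by the interaction, which 0 of 10 members and 0.883% of 13587 genes passed. At an unadjusted p under 0.05 there were 4 of 10, against 13.1% of all genes: Socs3 (adjusted p = 0.0787), Il11 (0.106), Il6st (0.147) and Osmr (0.35). Without the left-foot mice, 1 member, Lif, passed (adjusted p = 0.0340), against 2.02% of 13484 genes. Campaign goes with sequencing depth and with levels of cell markers, where 24.1% of all genes differed. In the later mice, 4 of 6 macrophage, 3 of 6 endothelial, 2 of 6 fibroblast and 1 of 5 tested osteoclast markers were lower. Higher were 3 of 6 keratinocyte, 1 of 6 osteoblast and 1 of 4 tested neutrophil markers. The part of depth or of tissue makeup in the differences of the members was not tested.

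**Figure D4:**
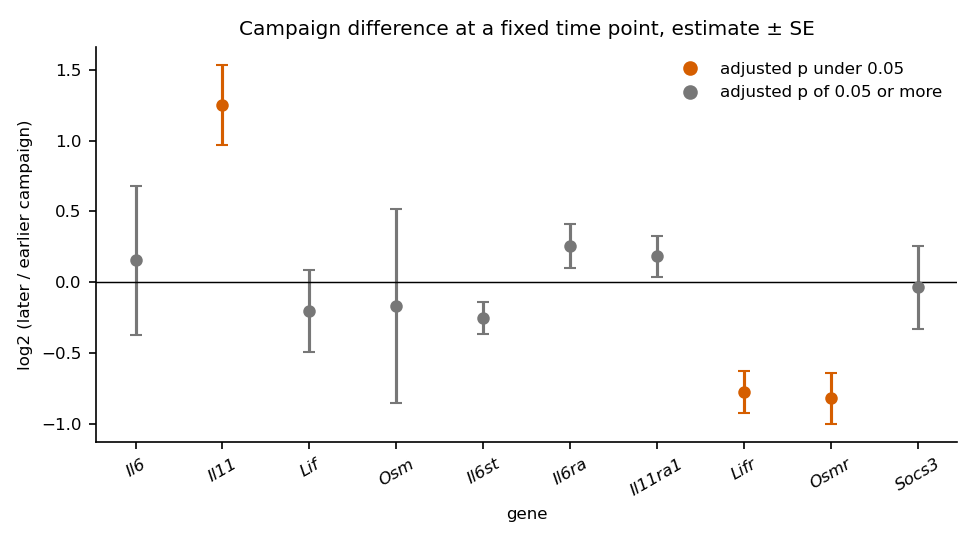
Difference of the later from the earlier campaign at a fixed time point for the 10 members (vertical axis, log2 of the ratio, estimate ± SE from the edgeR fit over 30 mice; horizontal axis, gene). Il11 lies above 0 (1.25), Lifr and Osmr lie below it (-0.77 and -0.82), and the 7 grey members did not pass the test.

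The other genes of the pathway were examined in 6 lists of 55 genes, of which 54 were found and 48 had enough reads to test. Against 0 h, 2 of the 48 were called at 3 h, 6 h and 12 h each, 5 at 24 h and at 3 d, 6 at 7 d, and 3 at 14 d and at 21 d. In the same order of times, the share of all genes called was 0.254%, 0.189%, 0.167%, 0.493%, 0.551%, 2.34%, 1.61% and 1.94%. The calls of pathway genes were all higher than at 0 h but Pim1 at 7 d. No gene in the lists of other ligands (5 tested), other receptors and receptor shedding (4), kinases and transducers (11) or inhibitors (8) was called against 0 h at any time by edgeR. At an unadjusted p under 0.05, 2 of the 5 other ligands, 1 of the 4 other receptors and 3 of the 11 kinases and transducers passed at 3 h, against 10.9% of all genes. At 24 h, 3 of the kinases and transducers and 2 of the 8 inhibitors did, against 9.41%. DESeq2's test called 1 gene of these lists, Stat3, at 3 h (log2 fold change 0.85, adjusted p = 0.0102), at 6 h (0.79, adjusted p = 0.0281) and at 7 d (0.58, adjusted p = 0.0384). The F-test over all times called 15 of the 48, against 9.01% of all genes. Among the 15 were Stat3, the main transcription factor of the pathway (adjusted p = 0.0429), and Tyk2, a Jak kinase (adjusted p = 0.0437). The calls of Stat3 and Tyk2 were weak, lost in 19 and 22 of the 30 fits that each left out a mouse and with no filter on low counts (adjusted p = 0.0552 and 0.0509). With campaign as a covariate Stat3 was no longer called (adjusted p = 0.0731), and without the left-foot mice Tyk2 was not (0.0667). The median log2 fold change over the 48 genes was 0.26 at 24 h and 0.38 at 7 d, against 0.01 and -0.01 over all genes tested.

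The calls fell among target genes and inducers. Timp1, which encodes an inhibitor of matrix metalloproteases, had 1.45 ± 0.51 CPM at 0 h (SD, n = 3). It rose to 45.6 ± 1.89 CPM at 24 h (log2 fold change 4.97, SE 0.55, adjusted p = 6.11e-06) and 59.8 ± 20.9 CPM at 3 d (5.35, SE 0.56, adjusted p = 3.11e-06). It was called at every time from 6 h to 21 d, and all mice lay above those at 0 h. From 12 h on, its calls held whichever mouse was left out. Bcl3, which encodes a regulator of NF-kappaB, had 2.18 ± 0.61 CPM at 0 h and rose to 20.2 ± 4.21 CPM at 12 h (log2 fold change 3.20, SE 0.60, adjusted p = 0.010). That call was lost without any 1 of the 0 h mice or without 12 h mouse 3. Serpina3n, an acute phase protease inhibitor, rose from 11.7 ± 1.89 to 79.7 ± 23.9 CPM at 24 h (log2 fold change 2.78, SE 0.64, adjusted p = 0.0357). The call was lost without any 1 of the 0 h mice and without 24 h mouse 1 or 2. The mean at 24 h was 92.0 CPM in the earlier and 55.2 CPM in the later mice, and the time course of Serpina3n differed between campaigns (interaction, adjusted p = 0.0135). Lcn2, an iron-sequestering acute phase protein, rose from 0.782 ± 0.444 to 11.7 ± 8.81 CPM at 7 d (SD, n = 6; log2 fold change 3.92, SE 0.84, adjusted p = 0.00765), a call lost without 0 h mouse 1 or 2.

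Among the inducers of the ligands, Il1b, which encodes interleukin 1 beta, was called at every time from 24 h on, and by DESeq2 from 6 h on. It had 0.542 ± 0.642 CPM at 0 h and 23.9 ± 7.95 CPM at 24 h (log2 fold change 5.65, SE 1.05, adjusted p = 0.00478). At 7 d it had 23.4 ± 20.6 CPM and at 14 d it had 21.0 ± 12.6 CPM. The 24 h call was lost without 0 h mouse 1 (adjusted p = 0.0828) or 0 h mouse 2. The calls at 3 d and 21 d were also lost without either of these, at 3 d without 3 d mouse 2 or 3, and at 21 d without 21 d mouse 1 or 2 and in a fit of the 21 d and 0 h mice alone (adjusted p = 0.0993). Without 21 d mouse 2 the log2 fold change at 21 d was 2.33 in place of 3.93. The pathway genes called at 3 h by edgeR were Nfkbiz, an NF-kappaB cofactor, and Myc, and DESeq2 called Bcl3, Il4ra and Timp1 as well. At 3 h Nfkbiz stood at 149 ± 64.5 against 54.3 ± 17.7 CPM (log2 fold change 1.46, SE 0.29, adjusted p = 0.0151). Myc, a growth regulator and Stat3 target, stood at 132 ± 41.1 against 54.7 ± 10.6 CPM (1.27, SE 0.25, adjusted p = 0.0151). Each of these calls was lost without 0 h mouse 1 or 2 or without 3 h mouse 2 or 3, and in a fit of the 3 h and 0 h mice alone. Il4ra, which encodes the interleukin 4 receptor subunit, was called at 24 h, 3 d, 7 d and 21 d. At 21 d it had 42.9 ± 15.2 CPM against 21.8 ± 2.88 CPM at 0 h (log2 fold change 0.98, SE 0.26, adjusted p = 0.0481), a call lost in 24 of the 30 fits that each left out a mouse. The target that fell was Pim1, which encodes a kinase, from 42.3 ± 9.15 to 19.8 ± 6.28 CPM at 7 d (-1.09, SE 0.22, adjusted p = 0.00478). Without the left-foot mice its adjusted p was 0.0759, and the call was also lost without 0 h mouse 1 or 3 and in a fit of the 7 d and 0 h mice alone.

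Between campaigns 10 of the 48 genes differed, 3 higher and 7 lower in the later mice, a share near the 24.1% of all genes. Of the 7, 4 were kinases or adaptors downstream of the receptors, named here after their values were seen. Jak1 had a log2 difference of -0.45 (SE 0.08, adjusted p = 7.82e-05), Jak2 of -0.63 (SE 0.14, adjusted p = 0.000937), Tyk2 of -0.59 (SE 0.15, adjusted p = 0.00527) and Gab1 of -0.41 (SE 0.11, adjusted p = 0.00613). The interaction of campaign and time passed for 3 of the 48, the targets Birc5, Cebpb and Serpina3n, against 0.883% of all genes.

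**Figure D5:**
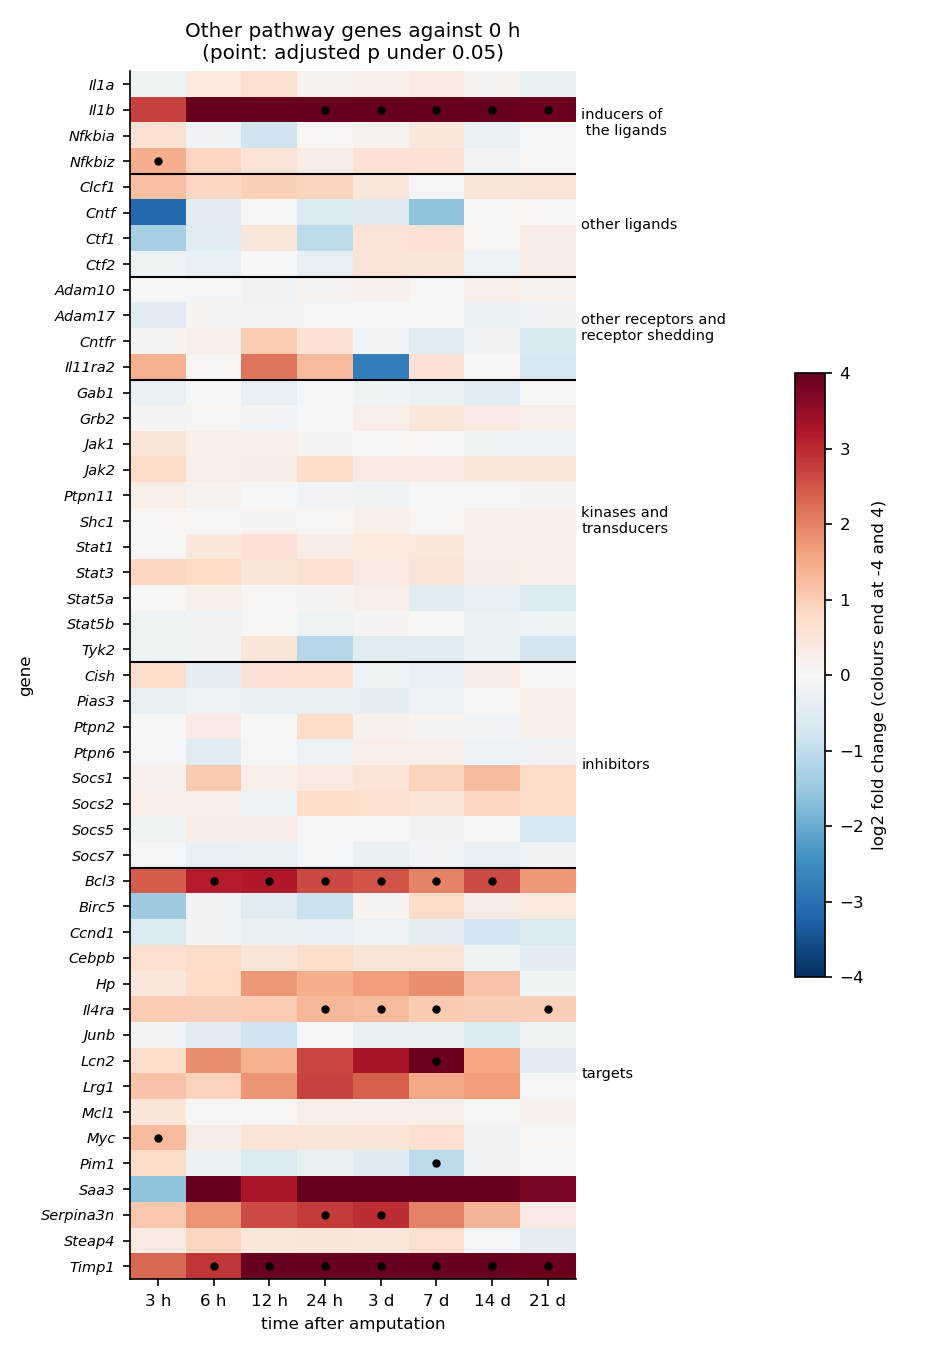
Log2 fold change against 0 h (colour, red higher and blue lower, with the scale cut at 4 in either direction) of the tested pathway genes outside the family, all but 1 of the 48 (rows, grouped by list) at 8 later times (columns). Points mark an adjusted p under 0.05: they lie on Il1b, Nfkbiz and 7 target genes, and none on the other ligands, receptors, kinases or inhibitors.

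Genes with a course like that of a member were ranked by Pearson's r of log2(CPM + 1) over the 30 mice, as a description of mice that share time points and campaigns. Closest to Il6 were Cxcl1, a neutrophil chemokine (r = 0.842, Spearman's rho 0.874), Selp, an endothelial adhesion molecule (0.831), Mmp3, a matrix metalloprotease (0.7999), and Sod2, a mitochondrial antioxidant enzyme (0.792). Closest to Lif were Mmp3 (0.919), Dio2, a thyroid hormone deiodinase (0.830), Gda (0.805) and Sod2 (0.790). Mmp3 and Sod2 stood in both lists, and Il6 and Lif themselves had r = 0.846. Il6 and Il11 had r = -0.07.

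Closest to Il11 were Pros1, an anticoagulant protein (0.788), Gas1 (0.783), Inhba, the activin A subunit (0.773), and Sirpa (0.758). For Inhba r was 0.962 within the earlier and 0.296 within the later campaign. Closest to Osm were Cxcl2, another neutrophil chemokine (0.748), Clec4d, a myeloid lectin (0.740), Il1b (0.689) and Srgn (0.667). For Socs3 they were Arid5a (0.759), Uap1 (0.726), Sele, an endothelial selectin (0.724), and Nr4a3, an immediate early transcription factor (0.711).

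Markers of leukocytes moved with time as well. The summed level of the 6 neutrophil markers was 17.8 to 33.5 CPM at 0 h, 15.3 to 40.5 CPM at 3 h and 44.8 to 113 CPM at 24 h. It was 55.4 to 138 CPM at 3 d, 75.9 to 186 CPM at 7 d and 92.5 to 133 CPM at 14 d. At 21 d it was 18.9 to 99.4 CPM and overlapped with 0 h. The 3 highest means of Osm were at 14 d, 24 h and 7 d. At 3 d the mean neutrophil sum (93.0 CPM) was above that at 24 h (69.7 CPM), while Osm overlapped with 0 h. Of the 4 neutrophil markers that could be tested, edgeR called 2 higher at each time from 24 h to 21 d. Of all genes, 0.493% to 2.34% were called at these times. DESeq2 called S100a8 and S100a9 at each of them, and Csf3r at 24 h, 7 d and 14 d. Elane, which marks immature neutrophils, was at 0 in all mice at every time but 3 d. The 6 macrophage markers summed to 95.7 to 121 CPM at 0 h, 115 to 135 CPM at 24 h and 97.7 to 264 CPM at 3 d. At 7 d they summed to 101 to 404 CPM and at 14 d to 162 to 212 CPM. At 3 h no neutrophil or macrophage marker was called by edgeR, which called 0.254% of all genes, or by DESeq2, which called 148 of 13793. With so few genes called at 3 h, the lack of a call does not show that these cells were unchanged. At an unadjusted p under 0.05 in edgeR, 1 of the 4 neutrophil and 1 of the 6 macrophage markers passed, against 10.9% of all genes. T cell markers summed to at most 4.08 CPM in any mouse. Osteoclast markers stood at 61.3 to 99.7 CPM at 0 h, 68.9 to 105 CPM at 24 h and 605 to 871 CPM at 3 d. They stood at 1366 to 3904 CPM at 7 d, the time of the highest Il11 mean, and at 623 to 1304 CPM at 14 d. The 2 did not move together at every time: the Il11 mean was 12.2 CPM at 0 h, 23.3 CPM at 24 h and 12.9 CPM at 14 d. The part of these cells in the levels of the members was not tested.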

How the data were processed

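The authors mapped single-end reads of poly(A) RNA to mouse genes of Ensembl v75 with Bowtie and estimated gene levels with RSEM 1.2.3, a version taken from the submitters' processing notes. They deposited, for each of 30 mice, the expected count of each gene, without normalization, and its TPM, relative to all genes of that mouse. Averages per time point that the authors also deposited were not used here. Reads that fit several copies of a gene are shared out by RSEM, so near-identical genes are uncertain.

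Expected counts, of which 78.1% were whole, were rounded and tested with edgeR 4.0.16 in R 4.3.3 (TMM normalization, filterByExpr by time point, quasi-likelihood tests, Benjamini-Hochberg adjustment over all 13793 genes kept, threshold 0.05). All 30 mice entered 1 fit with time point as the factor. The campaign fit added campaign, and the interaction fit used the 6 time points with both campaigns. The SE of a log2 fold change was computed as its size divided by the square root of F. Levels are CPM after TMM. Differences within a campaign and correlations used log2(CPM + 1). A floor of 3 counts per library was used where all 0 h mice were at or below it, and it reflects counting error alone, as amplified copies of a molecule are not independent. Pairs of mice of a time point differed by more than sampling noise (39 pairs, chi-square divided by its degrees of freedom between 9.8 and 94.7). The scripts were tested on simulated data.

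The members and the lists of pathway and marker genes were chosen with earlier results of these data known. Pathway genes were named if they were among the 3 largest changes with an adjusted p under 0.05 in either direction at a time point, with at least 5 CPM in the higher group, or among the 4 with the largest F of a list. Of the pathway genes, 1 is counted but not reported here by name. For each of Il6, Il11, Lif, Osm and Socs3, the 4 most similar genes were named. Alternatives were DESeq2 1.42.0 size factors and tests, no filter on low counts, campaign as a covariate, a threshold of 0.01, no left-foot mice, only the time points compared, log2(TPM + 1) or log2(TPM + 0.1), and each mouse left out in turn. Gene coordinates are those of GENCODE in GRCm38, and promoter windows are from RefSeq. Analyses used Python 3.11.15 with pandas 2.3.3 and numpy 2.4.6.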

Additional observations from a re-analysis of the deposited data

Results flagged for a closer look

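At 7 d, the highest Il6 level stood apart from those of the other 5 mice. It was 13.2 CPM in mouse 5, a right-foot mouse of the later campaign, against 1.27 to 5.18 CPM in the others. The gap to the nearest mouse was 0.673 of the whole range, above Dixon's 95% critical value for 6 mice. Of the 10 members examined at 7 d this was the 1 that passed. For normally distributed values chance passes about 1 in 20. Whether that holds for these CPM on a linear scale was not checked, and the 6 mice differ in campaign and foot. Without mouse 5 the bound for Il6 at 7 d was 8.56-fold in place of 13.5-fold. The same mouse had the highest Lif level at 7 d (64.2 CPM).

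The time course differed between campaigns for 3 pathway genes outside the family (edgeR interaction test). For Serpina3n (adjusted p = 0.0135) the later mice were lower at 3 d (30.6 against 120 CPM) and higher at 14 d (38.8 against 10.9 CPM). For Cebpb, which encodes a transcription factor of the acute phase response (adjusted p = 0.0314), the later mice were lower at 0 h (23.7 against 57.1 CPM) and higher at 7 d (60.0 against 32.0 CPM). For Birc5, which encodes survivin and marks dividing cells (adjusted p = 0.0316), the later mice were higher, most at 7 d (187 against 34.1 CPM). Without the left-foot mice, which are all of 7 d and the later campaign, the adjusted p of Birc5 was 0.0833.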

How the results depend on the processing

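No paired analysis was possible because the labels carry no replicate numbers. Among the members, the 3 campaign calls (Il11, Lifr and Osmr) were kept under every alternative, and the count ranged from 3 to 4 with a mouse left out. The interaction passed 1 member, Lif, in place of 0 without the left-foot mice. The log2 fold change of Lif at 24 h was 5.02 on log2(TPM + 1), which understates the change of low genes, and 5.81 to 6.32 with a mouse left out. The bound for Il6 at 24 h ranged from 117 to 167.

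Counts of pathway genes were less stable, and the cause was not tested. DESeq2's test called 6 at 3 h, 4 at 6 h, 4 at 12 h and 11 at 7 d, in place of 2, 2, 2 and 6. A threshold of 0.01 left 0 at 3 h, 0 at 6 h, 1 at 12 h, 3 at 24 h, 1 at 3 d, 1 at 21 d and 7 over the time course. A fit of only the 2 time points compared gave 0 at 3 h, 6 at 12 h and 1 at 21 d. With campaign as a covariate there were 5 at 14 d. Leaving out a mouse gave 0 to 6 at 3 h, 0 to 3 at 6 h, 1 to 4 at 12 h, 1 to 5 at 24 h and at 3 d, 2 to 8 at 7 d, 2 to 4 at 14 d, 1 to 5 at 21 d and 9 to 16 over the time course. The lowest counts came without a 0 h mouse at most times, and over the time course without 3 h mouse 3 or 12 h mouse 1. Of 1297 values for 40 single-gene results, 1155 kept their call, 142 lost it and 0 changed direction.

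With 3 mice at most times and often 1 or 2 of them in a campaign, differences of several times the SE printed can go uncalled. Lif at 3 h (log2 fold change 2.18, SE 0.57) and Osmr at 6 h (1.61, SE 0.41) did not pass the threshold. A gene that was not called is therefore not shown to be unchanged. Osm is close to the floor of 3 counts.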

Other observations

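At 7 d the 3 left-foot mice, all of the later campaign, can be set beside 1 right-foot mouse of the same campaign and 2 right-foot mice of the earlier one, without a test. Osmr had 19.0 to 37.3 CPM in the left-foot mice and 22.6 CPM in the later right-foot mouse, whereas the earlier right-foot mice had 48.4 and 51.0 CPM. Il6 had 1.27 to 3.32 CPM in the left-foot mice, 13.2 CPM in the later right-foot mouse, and 3.04 and 5.18 CPM in the earlier ones. Lif had 9.04 to 58.2 CPM, 64.2 CPM, and 36.3 and 41.4 CPM in the same order.

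Summed markers of fibroblasts, osteoblasts and endothelium had their highest means at 7 d or later, while Il6 and Lif were highest at 24 h. Summed keratinocyte markers overlapped with 0 h at 3 h and 6 h and lay below it at 12 h and 24 h. The 12 h mice were all of the earlier campaign. The 6 markers summed to 60675 to 62335 CPM at 0 h, 38725 to 88815 CPM at 3 h and 44397 to 61678 CPM at 6 h. They summed to 38758 to 50858 CPM at 12 h and 35010 to 53577 CPM at 24 h. None of the 6 was called at 12 h or 24 h. The 6 fibroblast markers summed to 3771 to 6603 CPM at 0 h, 2492 to 5302 CPM at 24 h and 24022 to 28994 CPM at 14 d, when 2 of the 6 were called higher. The 6 osteoblast and osteocyte markers summed to 119 to 348 CPM at 0 h, 154 to 240 CPM at 24 h and 2821 to 3726 CPM at 21 d, when 3 of the 6 were called. The 6 endothelial markers summed to 128 to 151 CPM at 0 h and 180 to 292 CPM at 7 d, when 1 was called. No fibroblast, osteoblast, osteoclast or endothelial marker was called at 3, 6, 12 or 24 h by edgeR's quasi-likelihood test or by DESeq2. In edgeR, 0.254%, 0.189%, 0.167% and 0.493% of all genes were called at these times. At an unadjusted p under 0.05 in edgeR, none passed at 3 h (10.9% of all genes) or 12 h. At 6 h, 2 fibroblast and 1 osteoclast marker passed. At 24 h, 2 fibroblast, 3 osteoblast, 1 osteoclast and 1 endothelial marker did, against 9.41% of all genes.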
